A study of Homo sapiens with 26 samples.

Results

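Of the 15909 DNMT3B peaks in the merged FLAG-DNMT3B list, 1140 (7.17%, 95% Wilson interval 6.78% to 7.58%) lay at the start of an assembled transcript without a gene name. Their midpoints were also away from every named start, though a wide peak can still hold a named start. A peak was taken when its midpoint was within 1000 bp of the start of a StringTie transcript that carries no gene name and over 1000 bp from the start of every transcript that carries one. These starts are called unannotated here, and a named transcript that covers the midpoint is called the host gene. The peaks come from FLAG-DNMT3B ChIP-seq in HCT116, a human colorectal cancer cell line. The ChIP groups were FLAG-DNMT3B (2 libraries), FLAG-ZBTB24 (3 libraries) and FLAG-only lines (2 libraries), each with as many inputs, and the RNA-seq groups were shZBTB24 (3 libraries), FLAG-ZBTB24 (2), the DNMT3B genetic knockout line 3BKO (1), the non-targeting hairpin shNT (3), FLAG-only (2) and wild type without tag or hairpin (1). The FLAG and hairpin lines were made by lentiviral infection and puromycin selection, and the FLAG lines were single-cell clones, so differences between clones cannot be told apart from the groups. Each factor has 1 merged peak list and each RNA group has 1 pooled value per locus, so no spread between libraries and no sequencing depth can be given. Intervals given here cover counting error only.

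DNMT3B adds new methyl groups to cytosines in CG dinucleotides, and mutations in DNMT3B or in the zinc finger gene ZBTB24 cause ICF, an immunodeficiency syndrome. Its PWWP domain reads methylated lysine 36 of histone H3, a mark laid down behind elongating RNA polymerase II by SETD2, which brings the enzyme to the bodies of transcribed genes. In mouse embryonic stem cells DNMT3B in gene bodies has been linked to the silencing of cryptic transcription starts.

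Most of the peaks had an unannotated start in the same direction as the host gene, and the minority with an opposite start sat late in the host. The sense majority rests on transcripts that the assembly puts in a locus with a named one: counting loci with no named transcript alone, the antisense share of peaks with a host is 64.2% in place of 30.5%. A start in the sense direction alone was found at 644 peaks (56.5%, 53.6% to 59.3%) and a start in the antisense direction alone at 304 peaks (26.7%, 24.2% to 29.3%). Starts or host genes on both strands were found at 50 peaks (4.39%), and 142 peaks (12.5%, 10.7% to 14.5%) had no named host. Among the 998 peaks with a host, 30.5% (27.7% to 33.4%) were antisense alone. In hosts of a single strand alone, that share of peaks was 31.6%. Counted by starts in place of peaks, the division near DNMT3B midpoints was close to that of unannotated starts at large. Of 22251 distinct unannotated starts over 1000 bp from named starts and inside hosts of a single strand, 36.8% were antisense, and of the 1069 of them with a DNMT3B midpoint within 1000 bp, 35.0% (32.2% to 37.9%) were.

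The transcripts behind the starts differed between the strands. At the peaks, 368 unannotated transcripts were antisense to the host, of which 343 (93.2%) had a single exon, with a median exonic length of 340.5 bases. Another 756 were in the sense direction, of which 623 (82.4%) had several exons. The 756 had a median of 6 exons and 2286 exonic bases. Of the 623 with several exons, 555 (89.1%, 86.4% to 91.3%) shared at least 1 intron with a named transcript, and so follow part of a known splicing pattern. Introns were matched by position without regard to strand, and to any named transcript, not to the host's alone. Of the 25 antisense transcripts with several exons, 10 (40%, 23.4% to 59.3%) also shared an intron with a named transcript. In the assembly 604 of the 756 sense transcripts (79.9%) were placed in the same locus as the host, and 0 of the 368 antisense ones, since an assembled locus has a single strand. An assembled start is the end of read coverage and not a mapped 5′ end, so a sense start may mark an incompletely assembled transcript as well as a start, and the files do not tell these apart. The library kit keeps the strand, per the labels' protocols, but the strand setting of the assembly was not stated.

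**Figure D1:**
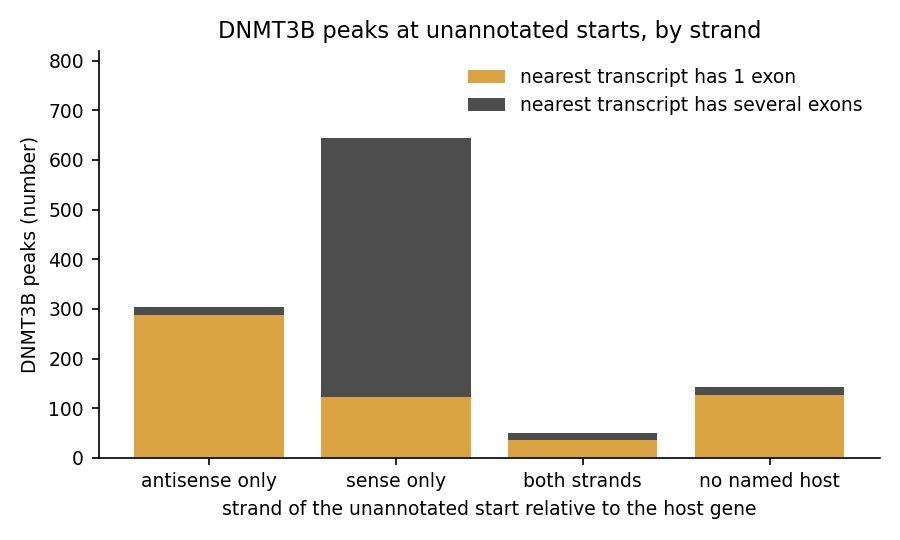
Number of DNMT3B peaks at unannotated starts (vertical axis) by the strand of the start relative to the host gene (horizontal axis), split by whether the nearest unannotated transcript has 1 exon (yellow) or several (grey). The 304 antisense peaks are mostly yellow and the 644 sense peaks mostly grey.

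Some single peaks show what the classes look like in the genome, in hg19 coordinates. The highest score, 4.76, belonged to a sense peak in CROCC, which encodes the ciliary rootlet protein rootletin, on chromosome 1 from 17270813 to 17271774. Its midpoint lay outside named exons at 44.8% of the host's length, 590.5 bp upstream of the start of an unannotated transcript with 22 exons. Among all DNMT3B peaks this score ranked 5. The score is the authors' own, 1 per peak, and no source used here says what kind of score it is. CUL4A, which encodes a scaffold of ubiquitin ligases, held the next peak (chromosome 13, 113916490 to 113921403, score 4.61), with its midpoint in a named exon at 99.2% of the gene. Its single-exon start was 999.5 bp away, just inside the limit. The nearest named start was 1712.5 bp from the midpoint of this 4914 bp peak, and so inside the peak.

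The other high-scoring sense peaks lay in USP3, RPP14, USH1C and GNB3. In USP3, a gene for a deubiquitinating enzyme, the peak (chromosome 15, 63858142 to 63859173, score 4.56) was 604.5 bp from the start of a transcript with 8 exons. In USH1C, which encodes the scaffold protein harmonin, the peak (chromosome 11, 17545231 to 17547167, score 4.37) held the start of a transcript with 7 exons, 125 bp from the midpoint. In GNB3, a G protein beta subunit gene (chromosome 12, 6953593 to 6954287, score 4.40), and in RPP14, a gene for a subunit of ribonuclease P (chromosome 3, 58299745 to 58303072, score 4.24), the transcripts had 1 exon. The midpoints of all 4 peaks lay outside named exons.

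The strongest antisense peak was in NDUFB6, a gene for a subunit of respiratory complex I, on chromosome 9 from 32568145 to 32568611, with a score of 4.47. The host is on the minus strand and the single-exon transcript on the plus strand, with its start at 32567593. The peak lay at 24.4% of the host's length, earlier than most antisense peaks. The next antisense peak, in the kinesin gene KIF22 (chromosome 16, 29808955 to 29809842, score 4.35), lay at 50.2% of the host and 522.5 bp from the start of a 222-base transcript. Of the peaks with starts or hosts on both strands, the highest score was 4.06, in the folate enzyme gene MTHFD1 (chromosome 14, 64906562 to 64907626). Its class rests on a long assembled transcript that carries the miRNA name MIR548AZ on the other strand. The nearest named start was 20345 bp away and that name covered 17 DNMT3B peaks in all, so it is not the miRNA alone. PDXDC1 and RRN3, which overlap on opposite strands, shared the next (chromosome 16, 15174060 to 15179565, score 3.98).

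At the low end of the score were peaks in FAM120B (2.54), in the receptor gene NOTCH2 (2.58) and in the aminopeptidase gene NPEPPS (2.73), all with sense starts. The 5 widest peaks also had sense starts. The widest, 44245 bp, lay in SETD5 (chromosome 3, 9473243 to 9517487), with 3 distinct unannotated starts within 1000 bp of its midpoint. Next came UBE2Z, a gene for a ubiquitin-conjugating enzyme (28742 bp), the transcription factor gene GTF2I (25720 bp), SMG1, a kinase gene of nonsense-mediated decay (23534 bp), and EDEM2 (21423 bp). For peaks this wide the midpoint is a poor marker of where in the gene the protein sits, and 57 of the 1140 peaks (5%) were at least 10000 bp wide, against 5.29% of the other 14649 DNMT3B peaks over 1000 bp from named starts.

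Of the 920 host genes, 808 held 1 such peak, and the rest 2 to 5. Genes with several were looked up after their values were seen. MYH10, the gene of non-muscle myosin heavy chain IIB, held 5, all antisense and all between 78.2% and 96.7% of the gene, among 11 DNMT3B peaks in all. ANKRD11, a chromatin regulator gene, held 4, all antisense, and DHODH, the gene of a pyrimidine synthesis enzyme, held 3, all antisense and making up all of its DNMT3B peaks. Peaks in one gene share its transcription and are not independent. Hosts such as NBPF20 (3 peaks) and GTF2I belong to duplicated sequence, where reads may be split between copies.

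By RefSeq biotype, 870 of the 920 hosts (94.6%) were protein-coding and 22 were long non-coding RNA genes. Zinc finger genes named ZNF hosted 10 of the peaks (0.877%), against 159 (1.09%) of the other DNMT3B peaks over 1000 bp from named starts. The share of a chromosome's DNMT3B peaks that lay at unannotated starts was 10.1% on chromosomes 15 and 17, and 5.68% on chromosome 1. Chromosome X, with 17 DNMT3B peaks, had 3 of them.

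The annotated starts of the hosts are rich in CpG, the dinucleotide that DNMT3B methylates. RefSeq promoters (GRCh38.p14, 250 bases before to 50 after the start, matched by current or older symbol) were found for 751 of 920 hosts (81.6%). In 669 of them (89.1%, 86.6% to 91.1%) the GC content was over 50% and the ratio of observed to expected CG dinucleotides over 0.6. Hosts of other DNMT3B peaks had 86.1% (85.0% to 87.2%) and all RefSeq promoters 46.8%. Sense hosts had 90.4% and antisense hosts 87.3%, with overlapping intervals. The promoters of the hosts of the top antisense and the top sense peak are shown because they fall on either side of that limit, with CG in capitals, 22 of them in NDUFB6 (ratio 0.925) and 7 in CROCC (ratio 0.306). They are the annotated promoters on GRCh38.p14, on chromosome 9 from 32573110 to 32573409 (minus strand) and on chromosome 1 from 16921681 to 16921980 (plus strand), and not the peaks, whose hg19 sequence was not analysed here.
NDUFB6: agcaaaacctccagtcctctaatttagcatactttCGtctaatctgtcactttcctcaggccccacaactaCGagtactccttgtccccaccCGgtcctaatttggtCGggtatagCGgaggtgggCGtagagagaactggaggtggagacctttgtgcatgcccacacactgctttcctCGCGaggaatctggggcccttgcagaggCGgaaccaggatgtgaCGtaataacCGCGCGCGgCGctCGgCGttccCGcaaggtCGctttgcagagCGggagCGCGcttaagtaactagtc
CROCC: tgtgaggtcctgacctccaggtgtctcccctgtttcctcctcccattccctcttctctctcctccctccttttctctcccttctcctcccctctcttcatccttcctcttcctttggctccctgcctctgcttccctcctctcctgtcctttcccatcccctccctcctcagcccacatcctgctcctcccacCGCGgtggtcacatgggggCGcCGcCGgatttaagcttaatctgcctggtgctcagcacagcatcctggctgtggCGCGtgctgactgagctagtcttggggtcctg

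Antisense peaks were found toward the 3′ end of the host. With hosts cut into 5 equal parts, the part at the 3′ end held 154 of 304 antisense peaks (50.7%, 45.1% to 56.2%), against 21.4% (18.4% to 24.8%) of sense peaks and 24.5% (23.8% to 25.2%) of the 13996 other DNMT3B peaks in a host of a single strand. The part at the 5′ end held 1.97% of antisense peaks, 11.6% of sense peaks and 9.66% of the other peaks. The other peaks here leave out those within 1000 bp of a named start. The median position was 80.1% of the host for antisense peaks, 58.9% for sense peaks and 60.3% for the other peaks. In bases, the median distance to the host's 3′ end was 6628 bp for antisense peaks, 20387 bp for sense peaks and 20757 bp for the others. Antisense starts without a DNMT3B midpoint within 1000 bp also lay late, at a median of 70.7% of the host with 39.4% in the part at the 3′ end (n = 7806). For the 374 antisense starts near a midpoint these values were 81.3% and 52.1% (47.1% to 57.2%). Sense starts had medians of 55.4% near a midpoint (n = 695) and 48.7% away from one (n = 13376). Since the starts and peaks share genes, no test was made of these differences.

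**Figure D2:**
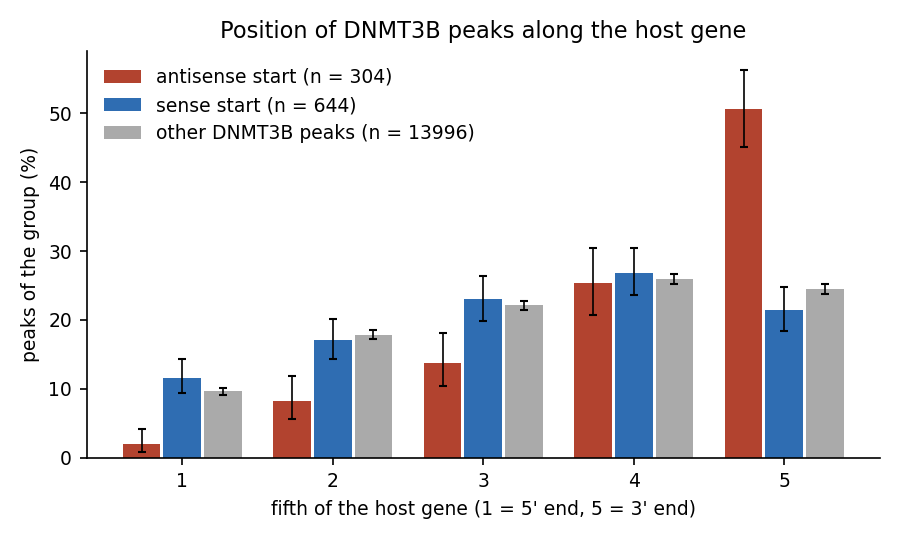
Share of peaks (vertical axis, %) in each of 5 equal parts of the host gene from the 5′ to the 3′ end (horizontal axis), for antisense peaks (red), sense peaks (blue) and other DNMT3B peaks (grey), with 95% Wilson intervals as error bars. The part at the 3′ end holds 50.7% of antisense peaks and 21.4% of sense peaks, against 24.5% of the others.

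A midpoint in a named exon was found for 171 of the 1140 peaks (15%, 13.0% to 17.2%), against 9.33% (8.87% to 9.81%) of the other DNMT3B peaks over 1000 bp from named starts. The share was 22.4% (18.05% to 27.4%) for antisense peaks and 13.5% (11.1% to 16.4%) for sense peaks. Hosts of the peaks were shorter, with a median length of 48798 bp (interval 45483 to 51839 bp), against 60617 bp (59276 to 62038 bp) for other peaks. The unannotated start itself lay inside the peak in 986 cases (86.5%), and its median distance to the midpoint was 455.8 bp. The midpoint lay downstream of the nearest start, in the direction of the unannotated transcript, at 54.3% (48.7% to 59.8%) of antisense and 46.0% (42.1% to 49.8%) of sense peaks.

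Unannotated starts were counted in bins of 1 kb around 9213 DNMT3B peaks, near an unannotated start or not. These peaks had a midpoint over 1000 bp from named starts and a host of a single strand extending at least 10 kb to both sides. Within 1 kb of the midpoint there were 2.25 sense starts per kb per 100 peaks (Poisson interval 2.04 to 2.47), against 2.60 (2.45 to 2.75) at 5 to 10 kb upstream and 1.99 (1.86 to 2.12) at 5 to 10 kb downstream. Antisense starts numbered 0.575 per kb per 100 peaks within 1 kb (0.471 to 0.696), against 0.538 (0.473 to 0.610) at 5 to 10 kb upstream and 1.02 (0.930 to 1.12) at 5 to 10 kb downstream. From the upstream to the downstream flank the sense rate fell and the antisense rate rose. The sense rate at the midpoint lay between those of the flanks, and its interval overlapped both of theirs. The antisense rate at the midpoint was near that of the upstream flank, with overlapping intervals, and under that of the downstream flank. Unlike the midpoints, the flanks were not kept away from named starts. Of 68111 distinct unannotated starts, 49074 lay over 1000 bp from named ones, and the rest could count in the flanks. These rates therefore cannot show whether starts are concentrated at midpoints. A start could also count for several peaks, which the intervals leave out.

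**Figure D3:**
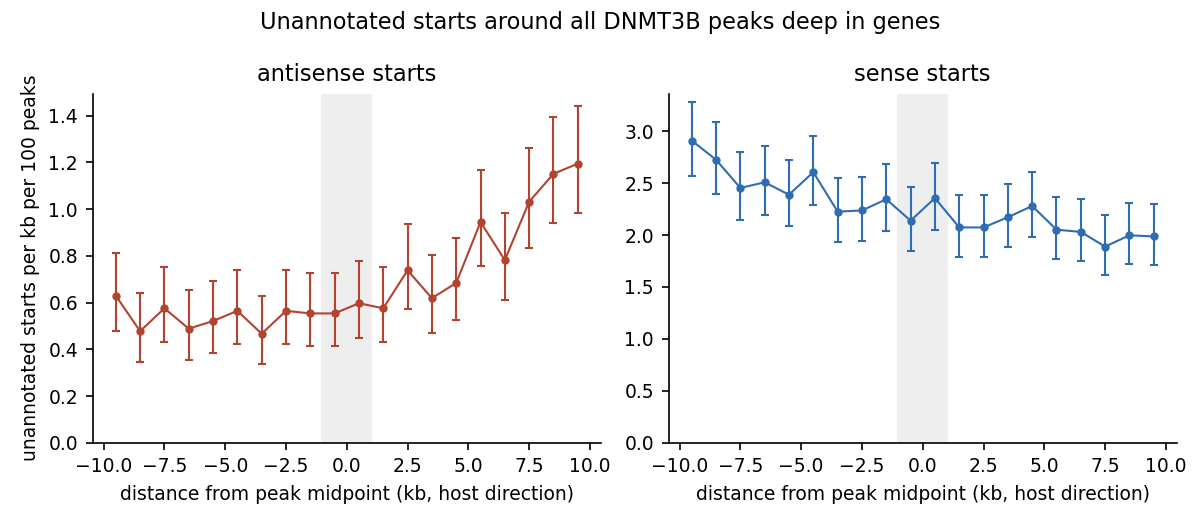
Unannotated starts per kb per 100 DNMT3B peaks (vertical axis, different scale in each panel) by distance from the peak midpoint in the direction of the host gene (horizontal axis, kb), for antisense (left) and sense starts (right), with Poisson intervals. The grey band marks the 1 kb on each side, where the rates were 0.575 (antisense) and 2.25 (sense). The antisense rate there was near that of the upstream flank, and the sense rate lay between those of the flanks.

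Seen from the starts, the share with a DNMT3B midpoint within 1000 bp differed by kind. It was 7.20% (6.67% to 7.78%) for sense starts of transcripts with several exons and 1.71% (1.40% to 2.07%) for sense starts with 1 exon. Antisense starts with 1 exon had 4.70% (4.24% to 5.21%), and starts without a named host 0.828% (0.725% to 0.946%). Antisense starts with several exons had 3.22% (2.15% to 4.78%). The order of the strands thus differed between starts with 1 exon and with several, and over both kinds the shares were 4.57% for antisense and 4.94% for sense starts, with overlapping intervals.

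The 142 peaks without a named host mostly lay just past the end of a gene. For 107 of them the nearest named transcript ended upstream of the peak, at a median distance of 1306 bp, and at 88 of these the unannotated start was on that gene's strand. Another 35 lay on the 5′ side, at a median of 10002 bp, and 4 were over 50000 bp from any named transcript (a limit chosen after the values were seen). Of the 320 other DNMT3B peaks over 1000 bp from named starts and without a named host, 235 lay on the 3′ side, at a median of 1915 bp. The highest scores were 1665 bp past CDC42, a gene for a small GTPase (chromosome 1, 22419949 to 22422253, score 4.18), and 1871 bp past GTF2E2, a gene for a subunit of the general transcription factor TFIIE (chromosome 8, 30432779 to 30435541, score 4.14). A lack of host was seen for 12.5% of peaks at unannotated starts. It was seen for 2.18% (1.96% to 2.43%) of other DNMT3B peaks over 1000 bp from named starts. These shares are not on equal terms, since the rule selects peaks by unannotated starts. Of such starts over 1000 bp from named ones, 53.1% had no named host.

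Scores and widths of the peaks lay within the range of the rest. The median score was 3.39 (3.37 to 3.41) at unannotated starts, against 3.39 (3.39 to 3.40) at the other peaks over 1000 bp from named starts. The medians were 3.38 for antisense, 3.40 for sense, 3.44 for both strands and 3.35 without a host. The median width was 2381 bp (2243 to 2497 bp), against 2488 bp (2449 to 2524 bp). Peaks without a host were the narrowest class, with a median of 1950 bp (1789 to 2441 bp). At the edge of the rule, the last peaks inside had starts at 995, 997 and 999.5 bp, with scores of 3.40, 4.07 and 4.61. The first outside had starts at 1000.5, 1002 and 1003 bp, with scores of 3.20, 3.16 and 3.37.

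**Figure D4:**
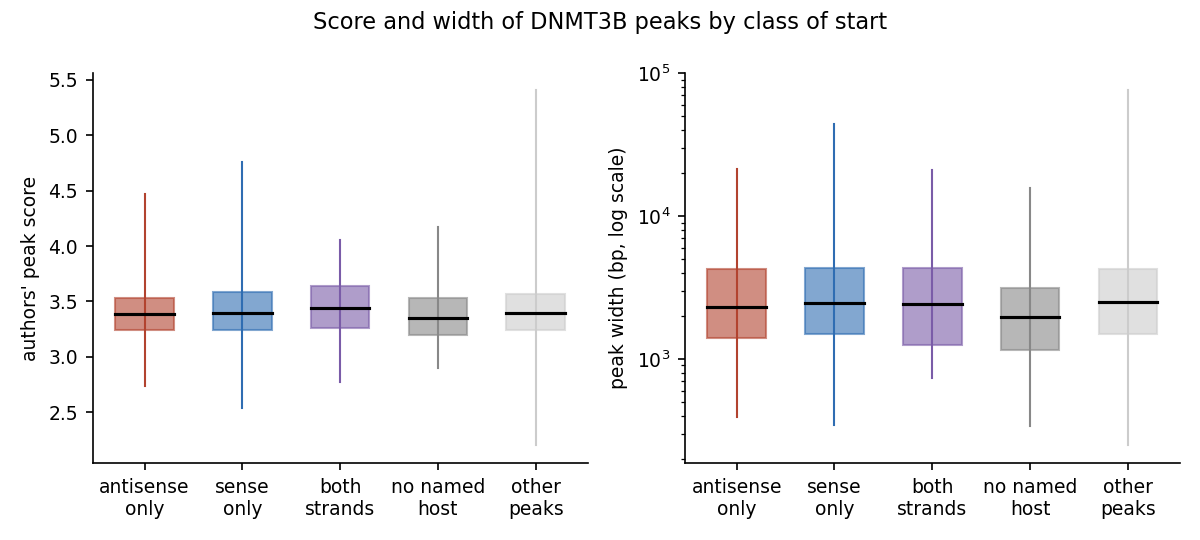
Authors' peak score (left) and peak width on a log scale (right) of the 4 classes of peaks at unannotated starts and of the other DNMT3B peaks. Boxes span the quartiles, black lines are medians and thin lines run from the lowest to the highest value, and the boxes of the classes overlap with that of the other peaks.

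Overlap with ZBTB24 peaks was rare among DNMT3B peaks over 1000 bp from named starts. Of the 1140 peaks, 0 overlapped a ZBTB24 peak by 1 base or more, which allows a share of up to 0.263%. Of the 14649 other DNMT3B peaks over 1000 bp from named starts, 5 did (0.0341%), a share that lies under that limit. The 120 DNMT3B peaks within 1000 bp of a named start were left out of this count. By the same rule, 233 of 6173 ZBTB24 peaks (3.77%, 3.33% to 4.28%) lay at unannotated starts.

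The deposited expression tables list part of the loci tested, and for named loci alone, so the unannotated transcripts themselves could not be followed and the host loci stand in for them. A host locus was matched by gene symbol. The knockdown and FLAG-ZBTB24 tables list log2 fold changes above 0.5 in size, so a list median near 0.5 shows little more than which direction has more loci. The p and q values are the authors'. For the knockdown and FLAG-ZBTB24 tables they may measure technical spread between libraries, and for the knockout, with 1 library per group, they hold no spread between libraries of a group. Of 9 epithelial markers, 2 were listed with the knockdown, and the authors' deposited table has CDH1 at 23.2 FPKM with shZBTB24 and 46.3 FPKM with shNT, and CDX2 at 18.8 FPKM with shZBTB24 and 6.90 FPKM with shNT. With added FLAG-ZBTB24, the authors' deposited table lists CDH1 at 42.5 FPKM, against 29.2 FPKM with the tag alone, and VIM at 0.716 FPKM, against 0.487 FPKM with the tag alone. The remaining epithelial markers are not listed, so the labelled cell type could be checked no further. Of 8 markers of other cell types, 1 was listed for the knockout, and the authors' deposited table has VIM at 629 FPKM in the knockout and 3.80 FPKM in wild type (q = 0.188). The part of these markers in the values below was not tested.

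With ZBTB24 knockdown, 11 host loci rose and 4 fell past the authors' q of 0.05 among 78 listed. That is 14.1% higher and 5.13% lower, against 12.2% and 9.82% of all 1965 listed loci, and intervals of 8.06% to 23.5% and 2.01% to 12.5% include both background shares. The median log2 fold change was 0.59 for host loci and 0.55 for all listed loci, and 49 of the 78 were higher (62.8%), against 55.0% of all listed loci and 60.7% of hosts of other DNMT3B peaks. An unadjusted p under 0.05 was listed for 74 of the 78 (94.9%) and for 97.0% of all listed loci. The hairpin's target ZBTB24 is not among the listed loci of this table, so the knockdown could not be checked on it. PARP12, an interferon-stimulated gene of the PARP family, has a sense peak at 86.4% of its length. The authors' deposited table puts it at 22.4 FPKM with shZBTB24, against 8.08 FPKM with shNT (a rise of 1.47 in log2, q = 0.00493). POLR3F, a gene for a subunit of RNA polymerase III with an antisense peak at 96.2%, rose as well. Its values in the authors' deposited table are 8.20 FPKM with shZBTB24, against 3.13 FPKM with shNT (a rise of 1.39). In ACP6, an acid phosphatase gene, the authors' deposited table shows 9.96 FPKM with shZBTB24, against 4.43 FPKM with shNT.

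Smaller rises were found at other hosts. PSMA3, a proteasome subunit gene with an antisense peak, is in the authors' deposited table at 121.8 FPKM with shZBTB24, against 61.6 FPKM with shNT. SESN1, a stress-induced target of p53 with an antisense peak, is in the authors' deposited table at 9.04 FPKM with shZBTB24, against 4.79 FPKM with shNT. For UBE2L6, which encodes the conjugating enzyme of the ubiquitin-like protein ISG15, the authors' deposited table shows 36.2 FPKM with shZBTB24, against 19.1 FPKM with shNT. The rises of BTRC, DPY30 and SLC37A1 were 0.86, 0.86 and 0.85 in log2 by the authors' deposited table. Among falls, the authors' deposited table has CIT, the citron kinase gene, at 3.605 FPKM with shZBTB24, against 8.44 FPKM with shNT. NFRKB, a gene of the INO80 remodelling complex, has 14.3 FPKM with shZBTB24, against 25.7 FPKM with shNT, by the authors' deposited table. NPIPB5 belongs to a multicopy family whose reads cannot be assigned with certainty, and the authors' deposited table lists 3.66 FPKM with shZBTB24, against 8.61 FPKM with shNT. Hosts of antisense peaks were higher at 20 of 29 listed loci, with a median log2 fold change of 0.66, and hosts of sense peaks at 30 of 50, with 0.56, beside the 55.0% of all listed loci that were higher. A host with peaks of different classes counts in each, which applies to 2 of the 78 loci.

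With added FLAG-ZBTB24, 0 of 69 listed host loci passed q under 0.05 by the authors' deposited table, which allows a share of up to 4.35%, and 2 had an unadjusted p under 0.05 (2.90%), against 9.92% of all listed loci. Of all 1754 listed loci, 0.228% rose and 0.342% fell past that q. More host loci had a higher than a lower value, with 47 higher and 22 lower, against 830 and 924 of all listed loci, and medians of 0.53 and -0.51. Hosts of other DNMT3B peaks were higher at 136 and lower at 159 loci. Among hosts with at least 1 FPKM, ANKRD37, a hypoxia-induced gene, had the largest difference. The authors' deposited table shows it at 10.3 FPKM with FLAG-ZBTB24, against 51.0 FPKM with the tag alone (q = 0.997). PNPLA3, a lipid droplet lipase gene with a sense peak, is listed by the authors' deposited table at 9.38 FPKM with FLAG-ZBTB24, against 3.74 FPKM with the tag alone (q = 0.447). The log2 fold changes of LRP4-AS1, LOC100131564, MIPEPP3 and SLC2A1-AS1 are 1.99, 1.66, 1.64 and 1.10 by the authors' deposited table, with q between 0.434 and 0.997.

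In the DNMT3B knockout library, 42 host loci were listed as higher than wild type, 0 of them past q under 0.05 (which allows a share of up to 7.14%), against 7 of all 2243 listed loci (0.312%). With 1 library per group there is no replicate check, and the rows under the knockout label are all at least 2-fold higher than wild type, so the medians below are those of a list limited at a log2 fold change of 1. Rows of the same table under a label that fits no sample, DNMT3BKOshZB, are all lower than wild type and include DNMT3B. Whether they are the lower loci of the knockout is not stated, so a lack of lower host loci cannot be read from these counts. At least 4-fold higher values were found at 11 of the 42 host loci (26.2%, 15.3% to 41.1%), against 52.8% of all listed loci. The median log2 fold change was 1.40 for host loci, 1.31 for the 175 loci that host other DNMT3B peaks and 2.25 for the 2026 loci that host none. These groups also differed in level, since the median wild-type value by the authors' deposited table was 6.93 FPKM for host loci, 5.95 FPKM for hosts of other peaks and 0.542 FPKM for the rest. The part of that level in the fold changes was not tested. Of gene symbols, 4.67% (3.49% to 6.24%) of hosts were listed, 3.71% (3.22% to 4.28%) of hosts of other peaks and 10.6% (10.1% to 11.0%) of genes without a DNMT3B peak.

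Among the largest differences of hosts in the knockout were the interferon-linked genes PARP12 and UBE2L6. The authors' deposited table puts PARP12 at 67.9 FPKM in the knockout, against 8.36 FPKM in wild type (q = 0.188). UBE2L6 stands in the authors' deposited table at 138.5 FPKM in the knockout, against 17.4 FPKM in wild type (q = 0.208). NEURL1, a ubiquitin ligase gene, has 54.6 FPKM in the knockout, against 1.21 FPKM in wild type, by the authors' deposited table (q = 0.267). Its antisense peak lay at 94.8% of the gene, 57.5 bp from the start of a single-exon transcript. JPH3, a junctophilin gene with an antisense peak at 99.4%, has 1.43 FPKM in the knockout, against 0.0453 FPKM in wild type, by the authors' deposited table. For HOXB-AS3 the authors' deposited table shows 2.27 FPKM in the knockout, against 0.285 FPKM in wild type, and for FER1L5 1.92 FPKM in the knockout, against 0.253 FPKM in wild type. The median log2 fold changes were 1.54 for 11 antisense hosts, 1.41 for 27 sense hosts and 1.13 for 6 hosts with both, where 2 of the 42 loci count in more than 1 class.

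**Figure D5:**
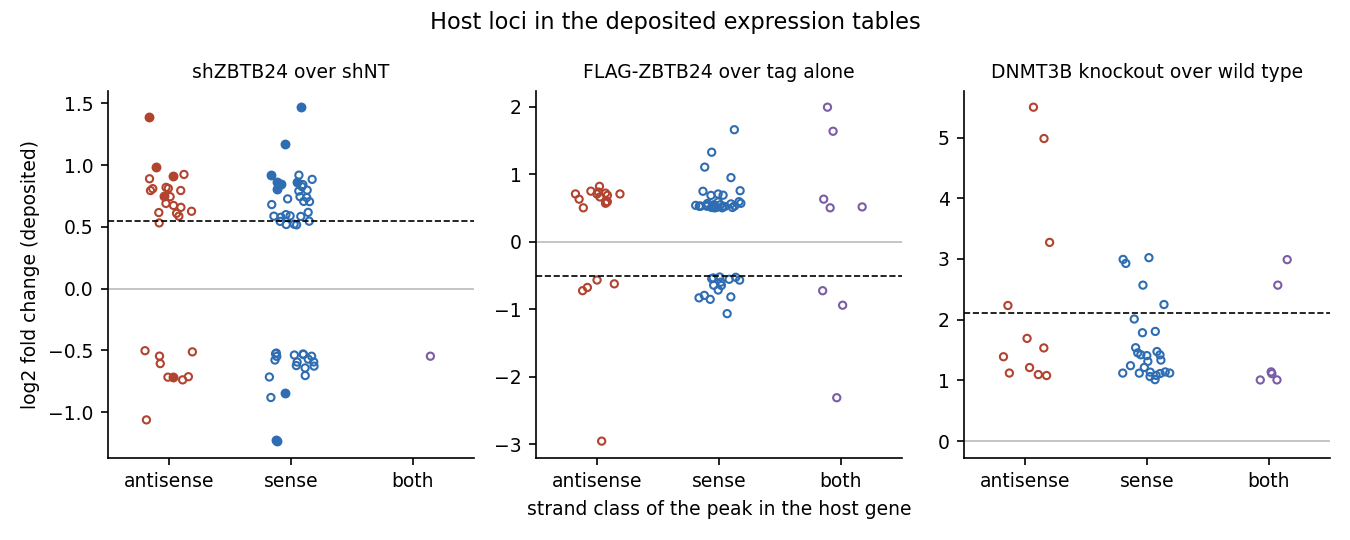
Deposited log2 fold change (vertical axis, different scale in each panel) of host loci in each expression table by the strand class of the peak (horizontal axis). Filled points have a q under 0.05, open points do not, and the dashed line is the median of all listed loci, at 0.55, -0.51 and 2.12 from left to right.

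A list of 36 genes of DNA methylation and of histone H3 lysine 36 methylation was set beside the peaks, and 30 of them held a DNMT3B peak. A peak at an unannotated start was found in 5. Over all named genes, 920 hosted such a peak, 4873 hosted other DNMT3B peaks alone and 20520 had none. The list was not tested against these counts. KDM4A, a demethylase of histone H3, held an antisense one of 21416 bp on chromosome 1 from 44143819 to 44165234. Antisense peaks also lay in PSIP1, whose protein reads the mark through a PWWP domain (score 3.22), and in the mismatch repair gene MSH6, whose protein has such a domain too (score 3.34). Sense peaks lay in MORF4L1, a reader gene (score 3.25), and in the remodeller gene CHD1 (score 3.605). None of these 5 genes was listed in the expression tables. With the knockdown 3 of the 36 were listed and 1 passed. TDG, a DNA glycosylase gene of active demethylation, rose to 11.8 FPKM with shZBTB24, against 6.36 FPKM with shNT, by the authors' deposited table (q = 0.0361). WHSC1 (q = 0.217) and ZMYND11 (q = 0.234) did not pass by the authors' deposited table. With added FLAG-ZBTB24, ZBTB24 itself is in the authors' deposited table at 154.6 FPKM, against 17.8 FPKM with the tag alone (q = 0.0192). For the knockout, DNMT3A is in the authors' deposited table at 8.47 FPKM, against 3.25 FPKM in wild type (q = 0.722).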

How the data were processed

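Binding was measured by FLAG ChIP-seq. Expression came from stranded libraries of total RNA, as the labels' protocols state. Per the submitters' processing notes, the tools included MACS2, HISAT2, StringTie and Cufflinks and the build was hg19, with versions not given. The authors deposited merged peak lists with 1 score per peak, computed by them in a way not stated. The tables have Cuffdiff's columns, per the file headers, and the group values the authors deposited in them, 1 pooled value per group and locus, are read as FPKM from that format, since no header names the unit. The authors computed the deposited log2 fold changes from these FPKM values, per the file headers. The p-values and q-values were computed by the authors, per the file headers. No filter, pseudocount or test was added to these.

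From the assembled annotation, which holds 73520 transcripts without and 53788 with a gene name, peaks were selected by midpoint. Starts at the same base and strand were counted once. Shares carry 95% Wilson intervals, counts per kb exact Poisson intervals and medians intervals from order statistics (Python 3.11.15, scipy 1.17.1), all for counting error only. The selection was tested on simulated data. Rows labelled DNMT3BKOshZB match no sample and were left out. The members, the lists and the comparisons were chosen with earlier results of these data known. Peaks named were the 8 highest, 3 lowest and 5 widest and the 2 highest of each class. Hosts named were up to 12 past q of 0.05 per table, or else the 6 with the largest fold change at 1 FPKM or more.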

Additional observations from a re-analysis of the deposited data

Results flagged for a closer look

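Rows of the knockout table labelled DNMT3BKOshZB, a label that fits none of the samples, stay outside the comparisons. They held 48 host loci, all lower than wild type, with a median log2 fold change of -1.40 by the authors' deposited table, against -1.48 over all 1112 such rows. All 1112 are lower than wild type, and all 2243 under the knockout label are higher, with 1 gene name listed under both. DNMT3B itself is among them, and the authors' deposited table puts it at 6.46 FPKM under that label, against 21.1 FPKM in wild type (q = 0.676). Whether the rows are the lower loci of the knockout library, which would set 48 lower beside the 42 higher host loci, is not stated. Of the 48, 0 passed q under 0.05, and the share of all 1112 rows that passed was not worked out. By the authors' deposited table GDA is at 1.81 FPKM under that label, against 20.2 FPKM in wild type (q = 0.252), and MYOF at 18.7 FPKM, against 127.6 FPKM in wild type (q = 0.22).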

How the results depend on the processing

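Of 37 alternative values, 24 stayed within 1.5 times the main count or within the interval of the main value, 12 moved and 1 turned a majority round. The number of peaks was 631 with a 500 bp limit, 1968 with 2000 bp, 576 with transcripts of several exons alone, 611 with loci that hold no named transcript and 562 with peaks at or above the median score, and 1649 where a peak only had to touch the start. The antisense share of 30.5% was 25.4% at 2000 bp, 3.21% with several exons and 64.2% with loci that hold no named transcript, which reverses the sense majority. By construction, the limit to several exons removes most antisense transcripts and the limit on loci most sense ones. With several exons the median score was 3.41 and the median width 2601 bp. At q under 0.1, 26 host loci passed with the knockdown, 20 of them higher. The share of all listed loci was not worked out at that limit, so these counts show nothing particular to the hosts. On log2 of FPKM + 1 the host median was 0.49 with FLAG-ZBTB24 and 1.11 in the knockout. No paired analysis was possible because the files hold 1 pooled value per group, and for the same reason no replicate could be left out.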
